A study of Mus musculus with 8 samples.

Results

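The CXC chemokines described here are 10 genes chosen by name: the neutrophil attractants Cxcl1, Cxcl2, Cxcl3 and Cxcl5, the interferon-induced Cxcl9, Cxcl10 and Cxcl11, and the constitutive Cxcl12, Cxcl14 and Cxcl16. The deposited table lists 21899 genes and holds 9 of the 10. No row is named Cxcl11, which was not analysed here. All 9 passed the filter on low counts, which kept 11380 genes. RNA was sequenced from the livers of mice taken 8 h after ConA (concanavalin A), a jack bean protein used to provoke T cell-driven hepatitis. There were 4 libraries labelled P2X4R knockdown, which the series design calls P2X4R-/-, and 4 labelled WT, called deficient and wild type below. Every library came from a ConA-treated animal, so levels without ConA are not analysed here. Neither the part of P2rx4 that was altered nor the strain, age or sex of the animals is given in the labels, and they do not say whether the libraries come from different animals. The p-values therefore reflect the spread among these 8 libraries, which may be technical.

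CXC chemokines are small secreted proteins named for a cysteine pair with a residue between them. They bind G protein-coupled receptors on leukocytes and direct their migration along gradients held on the endothelial surface and matrix. Cxcl1, Cxcl2, Cxcl3 and Cxcl5 act on Cxcr2 of neutrophils and are induced by cytokines such as TNF and IL-1 through the transcription factor NF-kB. Cxcl9, Cxcl10 and Cxcl11 act on Cxcr3 of activated T cells and NK cells and are induced by interferons. Cxcl12, Cxcl14 and Cxcl16 are made by many tissues at rest.

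Library totals ran from 15445285 to 16604190 counted reads. P2rx4, which encodes the receptor, had 286 to 516 reads in the deficient and 692 to 906 in the wild-type libraries, a level that fell by 1.18 in log2 units (SE 0.19, edgeR adjusted p = 0.00481). Levels are given in CPM, counts scaled to the library total after TMM normalisation, which corrects for library composition. A gene is called where its edgeR quasi-likelihood p, adjusted by Benjamini-Hochberg over all genes tested, is under 0.05. Of the 11380 genes 19.9% were called, 10.6% lower and 9.27% higher in deficient livers. All libraries expressed hepatocyte markers, with a summed level of 75073 to 102817 CPM for 10 genes in deficient and 110780 to 124322 CPM in wild-type livers.

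The DNA just before the start is shown for the inducible members with a listed promoter. These are Cxcl1, Cxcl2, Cxcl3 and Cxcl10, which fell, and Cxcl9, which was not called. Sequences are from RefSeq on GRCm38.p6, on the strand of the gene, and end at the base before the start. They cover chr5:90891105-90891244 (plus strand) for Cxcl1, chr5:90903759-90903898 (plus) for Cxcl2, chr5:90785961-90786100 (plus) for Cxcl3, chr5:92348890-92349139 (minus) for Cxcl10 and chr5:92328080-92328219 (minus) for Cxcl9. Capitals mark matches on either strand to GGGANNNNCC (an NF-kB word), TTTCNNTTTC (an interferon-stimulated response element, ISRE), TTCNNNGAA (a STAT element, GAS) and TGANTCA (AP-1), and overlapping matches run together.
Cxcl1: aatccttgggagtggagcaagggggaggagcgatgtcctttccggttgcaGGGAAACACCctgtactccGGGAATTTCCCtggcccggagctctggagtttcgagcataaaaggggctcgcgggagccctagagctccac
Cxcl2: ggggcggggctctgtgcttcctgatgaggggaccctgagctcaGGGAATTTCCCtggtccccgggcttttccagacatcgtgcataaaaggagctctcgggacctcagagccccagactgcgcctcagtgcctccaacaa
Cxcl3: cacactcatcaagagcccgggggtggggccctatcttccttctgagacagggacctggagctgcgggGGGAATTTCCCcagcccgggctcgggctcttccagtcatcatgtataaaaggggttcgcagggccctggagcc
Cxcl10: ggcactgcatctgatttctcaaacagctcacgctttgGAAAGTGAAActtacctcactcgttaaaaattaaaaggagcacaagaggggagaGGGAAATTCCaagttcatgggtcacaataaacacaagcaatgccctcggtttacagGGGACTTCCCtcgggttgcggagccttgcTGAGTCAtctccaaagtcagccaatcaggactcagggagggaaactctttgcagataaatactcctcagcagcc
Cxcl9: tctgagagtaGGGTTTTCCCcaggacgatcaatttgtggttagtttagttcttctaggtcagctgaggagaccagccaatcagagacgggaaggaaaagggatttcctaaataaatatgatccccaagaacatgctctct

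Within 250 bases before the start, the NF-kB word was present in these 5 promoters and in 17.6% of the 32851 promoters listed. Cxcl1, Cxcl2 and Cxcl3 carried the same letters, GGGAATTTCC, beginning 71, 97 and 73 bases before the start. That exact word, chosen after it was seen here, was in 0.0852% of promoters. Cxcl10 had matches at 159 (GGGAAATTCC) and 103 bases (GGGACTTCCC), an ISRE match (GAAAGTGAAA) at 213 bases and an AP-1 match (TGAGTCA) at 74 bases. Cxcl9 had GGGTTTTCCC at 130 bases and no ISRE, GAS or AP-1 match in this window. Cxcl14 had an ISRE match (GAAACAGAAA) at 172 bases and a GAS match (TTCTGAGAA) at 191 bases, and the Cxcl12 window held none of these words. Over all promoters the ISRE word was in 2.98%, GAS in 7.02% and AP-1 in 6.75%. Such matches describe the letters and do not show binding. Promoters matched by symbol for 7 members. None was listed for Cxcl5, Cxcl11 or Cxcl16, so Cxcl5, the neutrophil attractant that was not called, could not be set beside the others.

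Of the 9 chemokines, 5 fell and 1 rose in deficient livers, where 10.6% of all genes tested fell and 9.27% rose. The falls were Cxcl1, Cxcl2, Cxcl3, Cxcl10 and Cxcl12, and the rise was Cxcl14. Cxcl5, Cxcl9 and Cxcl16 were not called. In the 6 called genes the values of the groups did not overlap. Over all genes tested, deficient libraries lay wholly below wild type in 12.3% and wholly above in 12.7%. The median log2 fold change of the 9 was -0.68, against 0.00 over all genes. The members were chosen by name with earlier results known, so these counts describe the list and do not test it.

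**Figure D1:**
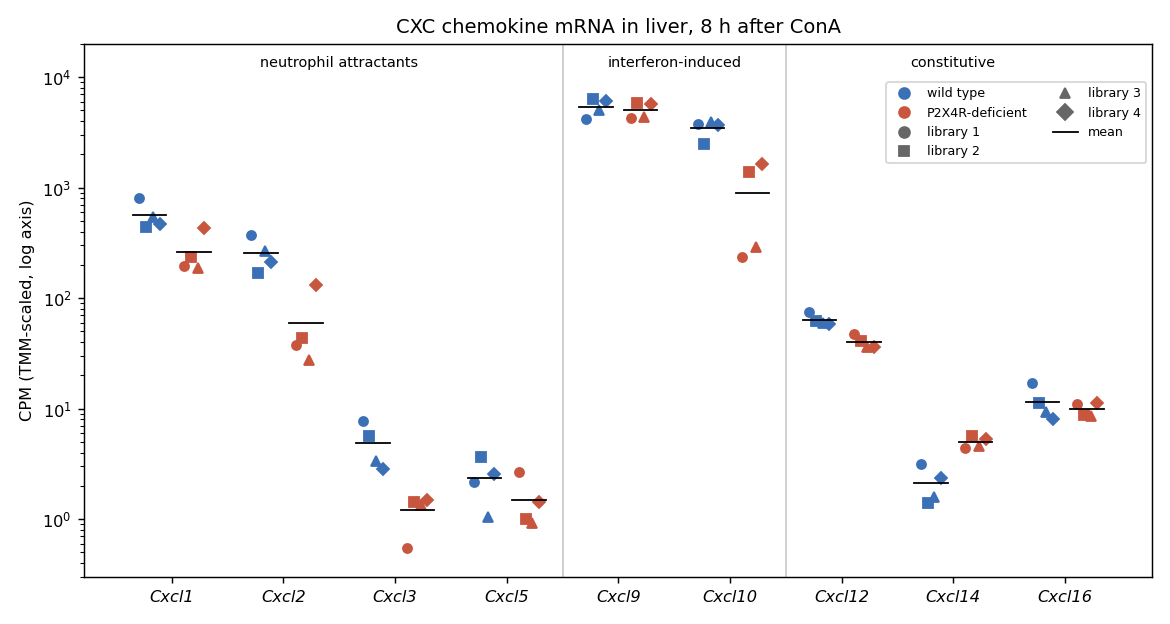
Level of each of 9 CXC chemokines in CPM (log axis) in 4 wild-type (blue) and 4 deficient (red) libraries, with symbols for the library number and a line at the group mean. Red points lie wholly below blue for Cxcl1, Cxcl2, Cxcl3, Cxcl10 and Cxcl12 and wholly above for Cxcl14.

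Among the neutrophil attractants, Cxcl1 (ENSMUSG00000029380), an early chemokine of the injured liver, was measured at 194, 235, 188 and 431 CPM in deficient libraries 1 to 4. The wild-type libraries held 811, 436, 548 and 465 CPM. Deficient 4 came within a few CPM of wild type 2, while the other deficient libraries were clearly lower. In log2 units, used for all changes below, Cxcl1 fell by 1.11 (SE 0.29, edgeR adjusted p = 0.0217), to 46.4% of wild type with a 95% interval of 30.0% to 71.6%. It lost its call without deficient 1, deficient 3 or wild type 3 (edgeR adjusted p = 0.0527, 0.0641 and 0.0523), with estimates of -0.99, -0.98 and -1.12.

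Cxcl2 (ENSMUSG00000058427), the close paralogue of Cxcl1 known as MIP-2, stood at 37.7, 43.2, 27.3 and 131 CPM in deficient libraries 1 to 4. In wild type the values were 373, 169, 266 and 211 CPM. Again deficient 4 was the highest of its group and wild type 1 the highest of the other. Cxcl2 fell by 2.09 (SE 0.45, edgeR adjusted p = 0.0112), to 23.5% of wild type (12.0% to 46.1%), and by 2.84 without deficient 4. It kept its call with any single library left out.

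Cxcl3 (ENSMUSG00000029379), a further Cxcr2 ligand, was scarce. It had 9, 23, 23 and 26 reads in deficient libraries 1 to 4 and 122, 80, 51 and 44 in wild type. In CPM these were 0.543 to 1.49 and 2.82 to 7.72. Cxcl3 fell by 2.02 (SE 0.41, edgeR adjusted p = 0.00958), to 24.7% of wild type (13.3% to 45.8%), and was called with any single library left out. On log2(FPKM + 1), which compresses low values, the estimate was -0.75 and was still called.

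Cxcl5 (ENSMUSG00000029371), a Cxcr2 ligand made chiefly by epithelium and platelets, had 44, 16, 16 and 25 reads in deficient and 34, 52, 16 and 40 in wild-type libraries. The groups overlapped over nearly their whole range. The means were 1.5 ± 0.801 CPM for deficient and 2.36 ± 1.08 CPM for wild-type livers (SD, n = 4). The difference was -0.64 with a 95% interval of -1.62 to 0.33 (edgeR adjusted p = 0.333), which leaves room for a fall as large as that of Cxcl1 and for a small rise.

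The 2 measured interferon-induced genes gave unlike values. Cxcl9 (ENSMUSG00000029417), also called MIG and known as a target of interferon gamma, had the most reads of the 9 in every library. It stood at 4311, 5811, 4407 and 5681 CPM in deficient libraries 1 to 4 and at 4188, 6314, 5062 and 6084 CPM in wild type. Each group spanned nearly the same range. Means were 5053 ± 804 and 5412 ± 981 CPM (SD, n = 4). The difference was -0.10 (SE 0.18, edgeR adjusted p = 0.732), and its interval of -0.49 to 0.30 corresponds to 71.0% to 123% of wild type. Its sign turned with library size as the only scaling (0.047) and in limma on log2(FPKM + 1) (0.051).

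Cxcl10 (ENSMUSG00000034855), also called IP-10 and induced by type I and type II interferons and by NF-kB, stood at 238, 1382, 292 and 1640 CPM in deficient libraries 1 to 4. Wild type held 3808, 2495, 3946 and 3660 CPM. All deficient libraries were lower, and they fell into a low pair, 1 and 3, and a higher pair, 2 and 4. The highest deficient value was 6.89 times the lowest, against 1.58 times among wild-type libraries. Cxcl10 fell by 1.97 (SE 0.53, edgeR adjusted p = 0.0255), to 25.5% of wild type (11.4% to 57.3%). Averages of log values gave a larger fall, -2.44 with voom. The call was lost without deficient 3 (-1.68, edgeR adjusted p = 0.0589) or wild type 3 (-1.90, edgeR adjusted p = 0.064). Cxcl9 and Cxcl10 lie next to each other on chromosome 5 in the table, at 92469206 to 92475938 and 92494497 to 92496748 on the minus strand. Whether their responses differ was not tested beyond these values.

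Of the constitutive members, Cxcl12 (ENSMUSG00000061353), the ligand of Cxcr4 that retains leukocytes and stem cells in tissue, was at 47.1, 41, 36.0 and 35.8 CPM in deficient libraries 1 to 4. The wild-type libraries held 75.3, 61.7, 59.5 and 58.9 CPM. Libraries within a group differed little, by at most 1.32 times in deficient and 1.28 times in wild type. Cxcl12 fell by 0.68 (SE 0.15, edgeR adjusted p = 0.0139), to 62.6% of wild type (49.6% to 79.0%). It stayed past the threshold with any single library left out.

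Cxcl14 (ENSMUSG00000021508), a chemokine of epithelium and stroma, went the other way. It had 73, 92, 79 and 92 reads in deficient libraries 1 to 4, or 4.41 to 5.71 CPM, and 50, 20, 24 and 37 reads in wild type, or 1.41 to 3.16 CPM. Wild type 1 was the nearest to the deficient range. Cxcl14 rose by 1.22 (SE 0.30, edgeR adjusted p = 0.017), to 233% of wild type (149% to 364%). The call was lost without wild type 3 (1.10, edgeR adjusted p = 0.0537).

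Cxcl16 (ENSMUSG00000018920), a membrane-anchored ligand of Cxcr6 that can be shed, was at 11.0, 8.76, 8.62 and 11.1 CPM in deficient and 17.0, 11.2, 9.30 and 8.14 CPM in wild-type libraries. Apart from wild type 1 all libraries shared a narrow range. The difference was -0.21 (SE 0.23, edgeR adjusted p = 0.567) with an interval of -0.72 to 0.31, and it was 0.04 without wild type 1.

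**Figure D2:**
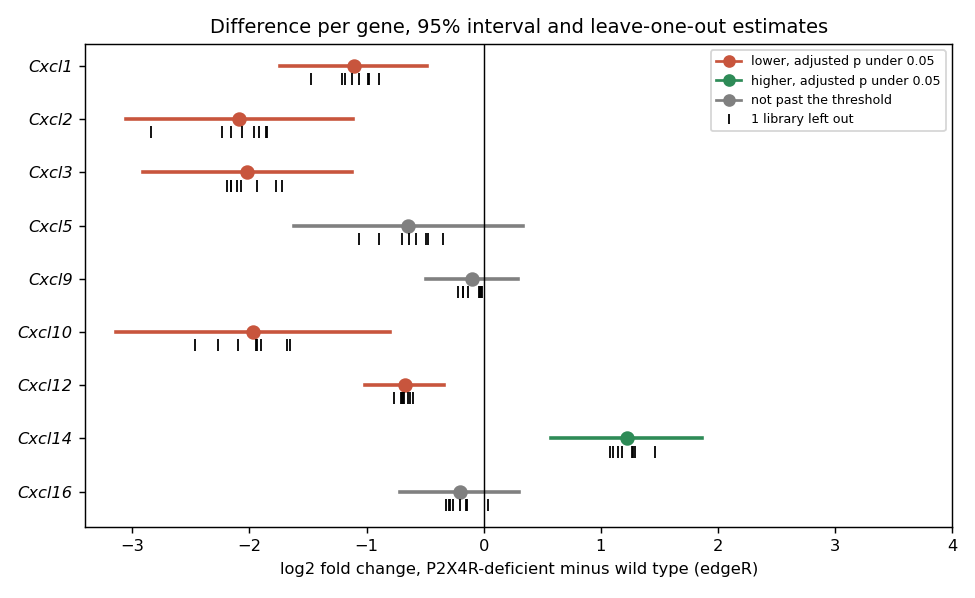
Log2 fold change of each gene, deficient minus wild type, from edgeR (points) with its 95% interval (lines), and the 8 estimates with 1 library left out (black ticks). Intervals of Cxcl5, Cxcl9 and Cxcl16 include 0, and leaving out deficient 4 moves Cxcl2 to -2.84.

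Each member was also compared by an exact two-sided permutation test of mean log2 CPM over the 70 assignments of libraries. Each of the 6 called genes gave an exact p = 0.0286, the smallest that 4 against 4 allows. Groups that do not overlap always give this value, so it adds nothing to the separation stated above. Cxcl5 gave an exact p = 0.257, Cxcl9 an exact p = 0.6 and Cxcl16 an exact p = 0.571. On log2(FPKM + 1) in place of CPM, Cxcl1 gave an exact p = 0.0857, and there deficient 4, at 241 FPKM, lay above wild type 2 at 213 and wild type 4 at 239.

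Levels of different genes were set side by side in FPKM, in which reads are divided by the listed gene length and the library total. In wild-type livers the order was Cxcl9 at 1700 ± 274, Cxcl10 at 1472 ± 309, Cxcl1 at 289 ± 98.6, Cxcl2 at 118 ± 45.2, Cxcl12 at 7.45 ± 1.18, Cxcl16 at 3.61 ± 1.38, Cxcl3 at 1.34 ± 0.656, Cxcl5 at 1.20 ± 0.527 and Cxcl14 at 1.12 ± 0.471 FPKM (SD, n = 4). Cxcl9 and Cxcl10 overlapped there, and Cxcl10 was the higher of the pair in wild type 1 and 3. Cxcl5 overlapped Cxcl3, and Cxcl14 overlapped Cxcl5, while Cxcl3 lay wholly below Cxcl16. In deficient livers Cxcl9 was at 1756 ± 235 and Cxcl10 at 409 ± 331 FPKM (SD, n = 4), and these no longer overlapped, while Cxcl10 overlapped Cxcl1 at 147 ± 63.5. Cxcl14, at 2.87 ± 0.269, moved above Cxcl5 and Cxcl3. For Cxcl1, Cxcl2, Cxcl3 and Cxcl10 the listed length equals the whole span of the gene, introns included, which lowers their FPKM relative to the others. A comparison of groups for a single gene does not depend on this length, but the shares and sums over genes given next do.

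As a share of the summed FPKM of the 9 genes, Cxcl9 made up 85.6%, 71.4%, 85.2% and 64.6% in deficient libraries 1 to 4 and 37.4%, 59.3%, 43.4% and 50.4% in wild type. Cxcl10 made up 6.33%, 22.7%, 7.57% and 24.97% in deficient and 45.6%, 31.4%, 45.3% and 40.6% in wild type. The Cxcl9 shares of the groups did not overlap, nor did those of Cxcl10. The FPKM ratio of Cxcl9 to Cxcl10 was 13.5, 3.14, 11.3 and 2.59 in deficient libraries and 0.821, 1.89, 0.958 and 1.24 in wild type. Cxcl1 to Cxcl2 was 5.66, 6.01, 7.58 and 3.62 in deficient and 2.40, 2.85, 2.27 and 2.43 in wild type, again without overlap. The summed FPKM ran from 1792 to 3058 in deficient and from 3237 to 3853 in wild type. These shares are a description of the same values and carry no further test.

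**Figure D3:**
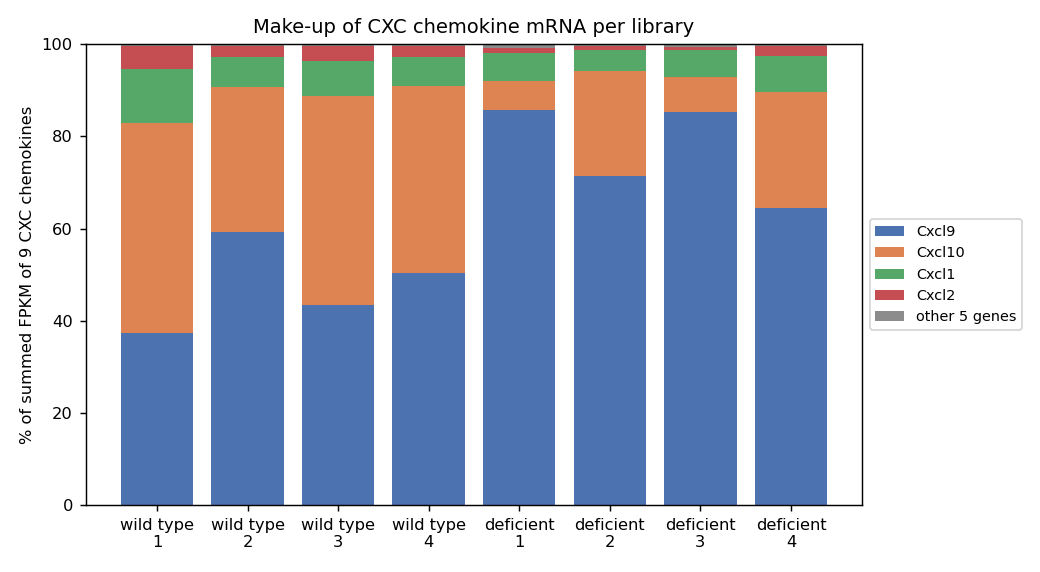
Share of each gene in the summed FPKM of 9 CXC chemokines, in percent, for each library. Cxcl9 (blue) fills 64.6% to 85.6% of the bar in deficient and 37.4% to 59.3% in wild-type libraries, and Cxcl10 (orange) takes a smaller share in every deficient library.

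Other CXC ligands were at low levels. Ppbp, the platelet basic protein gene that sits between Cxcl5 and Pf4, had 10, 11, 10 and 15 reads in deficient and 38, 24, 29 and 27 in wild-type libraries, and fell by 1.49 (SE 0.34, edgeR adjusted p = 0.0136). Pf4, encoding platelet factor 4, was at 0.995 ± 0.434 and 1.22 ± 0.420 CPM (SD, n = 4, edgeR adjusted p = 0.664). The B cell attractant Cxcl13 had 38 reads in all deficient and 46 in all wild-type libraries, and Cxcl17 had 3 and 12. Both were below the filter and were not tested. Cxcl15 had 0 reads in every library, which allows up to 0.172 (deficient 4) to 0.211 CPM (wild type 2) per library at 3 reads.

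Of the 10 receptors, 5 passed the filter and 1 was called, where 19.9% of all genes tested were called. The called receptor was Cxcr2, the neutrophil receptor of the Cxcl1 group. It was at 3.68, 2.24, 1.74 and 4.71 CPM in deficient and 1.77, 0.914, 1.06 and 0.513 CPM in wild-type libraries, with overlap only between deficient 3 and wild type 1. Cxcr2 rose by 1.53 (SE 0.44, edgeR adjusted p = 0.0312). The call was lost without deficient 1 or 4 or wild type 2, 3 or 4 (edgeR adjusted p = 0.0691, 0.0944, 0.067, 0.0795 and 0.0702). Cxcr4, the receptor of Cxcl12, was at 2.38 ± 0.432 and 1.72 ± 0.708 CPM (SD, n = 4, edgeR adjusted p = 0.363). The scavenger receptor Ackr3, which takes up Cxcl12, was at 3.06 ± 1.94 and 5.45 ± 1.42 CPM (SD, n = 4, edgeR adjusted p = 0.321), with 3 reads in deficient 3 and 59 to 112 in the other libraries. Ackr1 and Ackr2, further atypical receptors, were not called (edgeR adjusted p = 0.589 and 0.322). Cxcr3, the receptor of Cxcl9 and Cxcl10, had 16 reads in all deficient and 5 in all wild-type libraries, and Cxcr6, the receptor of Cxcl16, had 28 and 39. Cxcr1 had 1 and 0, Cxcr5 had 21 and 15 and Ackr4 had 14 and 1. These 5 were below the filter.

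Among 8 enzymes that trim or shed chemokines, 1 rose and 1 fell, where 9.27% of all genes tested rose and 10.6% fell. Mmp8, the neutrophil collagenase, rose by 2.12 (SE 0.55, edgeR adjusted p = 0.0209), and by 1.37 without deficient 4, where it was not called (edgeR adjusted p = 0.063). The call for Mmp8 was also lost without wild type 3 (1.95, edgeR adjusted p = 0.0654). Dpp4, a peptidase that truncates chemokines including Cxcl10 and Cxcl12, fell by 0.81 (SE 0.21, edgeR adjusted p = 0.0212), from 57.03 ± 12.2 to 32.6 ± 7.84 CPM (SD, n = 4), and lost its call without deficient 3 or wild type 3 (edgeR adjusted p = 0.0616 and 0.0717). Mmp9 averaged 4.37 ± 1.17 CPM against 1.28 ± 1.12 CPM in wild type (SD, n = 4, edgeR adjusted p = 0.0515), and Mmp14 at 51.5 ± 4.88 and 38.3 ± 4.58 CPM (edgeR adjusted p = 0.0583). Mmp9 passed in 9 of the 17 alternatives, among them DESeq2 (adjusted p = 0.012). Adam10 and Adam17, the sheddases of Cxcl16, were not called (edgeR adjusted p = 0.353 and 0.237).

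Of 13 tested cytokines and receptors that drive chemokine induction, 4 fell, where 10.6% of all genes tested fell. Il1a fell by 2.28 (SE 0.48) and Il6 by 2.16 (SE 0.53). The receptor genes Ifngr2 and Il17ra fell by 0.69 (SE 0.17) and 0.70 (SE 0.18). Il1a had 11 to 26 reads in deficient libraries, 174 in wild type 1 and 45 to 53 in the other wild-type libraries. Il6 had 5 to 18 reads in deficient and 14 to 85 in wild type, and its groups overlapped. Without deficient 3 only 1 of the 13 was called. Tnf averaged 2.01 ± 0.497 CPM against 3.58 ± 1.44 CPM in wild type (SD, n = 4, edgeR adjusted p = 0.112), and Ifng at 0.834 ± 0.319 and 1.76 ± 0.727 CPM (edgeR adjusted p = 0.0944).

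Of the 16 transcription factors reported, 10 fell, where 10.6% of all genes tested fell. Nfkb1, the p50 precursor of NF-kB, fell by 1.15 (SE 0.23), Rel by 1.45 (SE 0.29) and the NF-kB cofactor gene Nfkbiz by 1.15 (SE 0.28). These regulators act on many inflammatory genes besides the chemokines. Leaving out single libraries brought the falls to 4 (deficient 3), 5 (wild type 3 or 4) and 6 (deficient 1). Among 10 tested genes of mRNA decay and stability, 6 fell. They included Zfp36, which encodes the tristetraprolin that destabilises Cxcl1 and Cxcl2 mRNA, by 1.73 (SE 0.40), and its relative Zfp36l2 by 1.49 (SE 0.34). Arid5a fell by 0.98 (SE 0.23), and Traf3ip2, the IL-17 receptor adaptor that stabilises Cxcl1 mRNA, by 1.22 (SE 0.30). The count was 4 without wild type 3.

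The low values of deficient 1 and 3 seen for Cxcl10 recurred in these lists. Zfp36 was at 148, 537, 154 and 446 CPM in deficient libraries 1 to 4 and at 722 to 1274 CPM in wild type. Both libraries lay below deficient 2 and 4 in 10 of the 10 transcription factors that fell, in 3 of the 6 decay genes that fell and in 4 of the 5 chemokines that fell (Cxcl1, Cxcl2, Cxcl3 and Cxcl10). Deficient 2 and 4 were themselves below every wild-type library in all 21 genes of these 3 lists that fell. Among the cytokine and receptor genes above this held for 3 of the 4 that fell. The exception was Il6, with deficient 4 at 1.03 CPM and wild type 4 at 0.897 CPM. Genes that fell were picked for low values in deficient libraries, so these positions largely follow from that choice. The split was noticed in the data. How often it occurs among all genes that fell was not counted, so it is not shown to be particular to these lists. Its source was not tested.

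**Figure D4:**
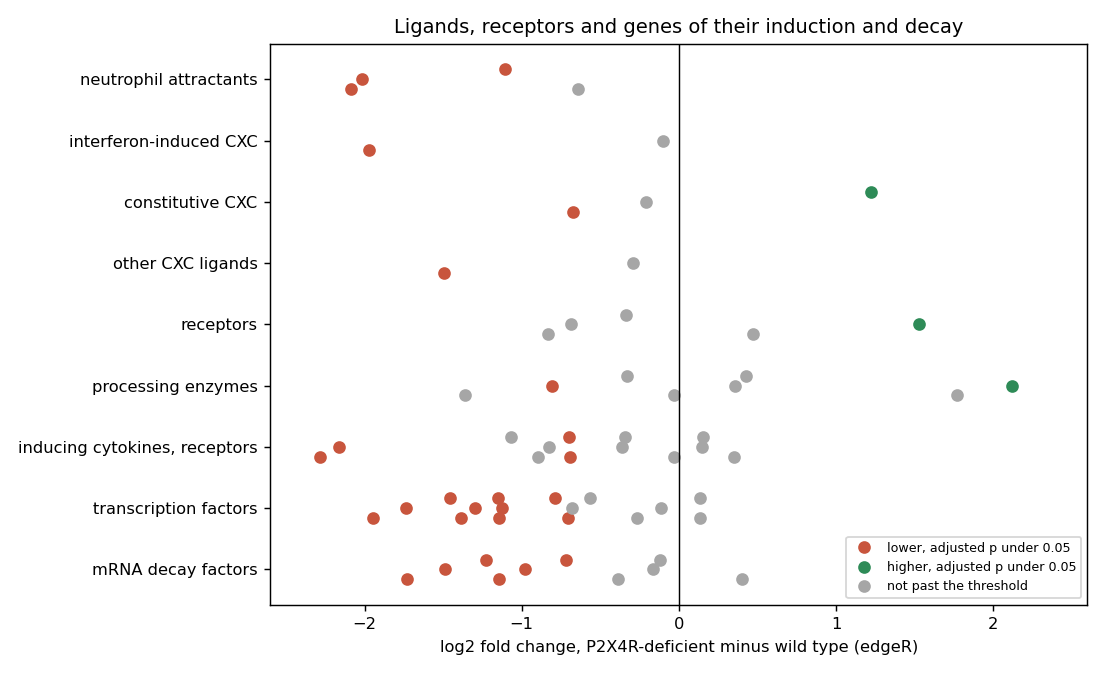
Log2 fold change, deficient minus wild type, of the tested genes reported in 9 lists, coloured by call (red lower, green higher, grey not past the threshold). Cxcl14, Cxcr2 and Mmp8 are the green points.

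Markers of cells that make or follow these chemokines were read beside them. In a bulk library, fewer cells of a type and less RNA per cell cannot be told apart. Over all genes tested 10.6% fell and 9.27% rose, shares to be read beside the counts that follow. Of 12 tested neutrophil markers 2 rose, Mmp8 and Cxcr2, which also stand in the lists above, and the summed level of the 16 genes was 101 to 194 CPM in deficient and 31.5 to 111 CPM in wild-type libraries, so the groups overlapped. Leaving out single libraries gave 0 (deficient 4) to 5 (wild type 1) markers that rose, with 1 when deficient 1 or wild type 3 was dropped and 4 for wild type 2. Ly6g, a defining marker below the filter, averaged 0.792 ± 0.227 CPM in deficient livers against 0.0815 ± 0.0791 in wild type (SD, n = 4), and none of the 16 was at 0 in all libraries. Of 10 tested Kupffer cell and macrophage markers 4 fell, Clec4f, Cd5l, Adgre1 and Csf1r. With a library left out 0 to 4 did (0 without deficient 3, 1 without deficient 1, 2 or 4 or wild type 1 or 2). In other fits of all 8 libraries the count was 4 with DESeq2 and 3 with robust empirical Bayes. It was 2 with the replicate block, 1 with library size alone or voom and 0 in limma on log2(FPKM + 1). Sums were 50.4 to 60.1 CPM in deficient and 54.0 to 153 CPM in wild type. Wild type 1 was the highest for Cd5l (35.9 CPM, other wild type 9.74 to 13.3) and Clec4f (39.8 CPM, other wild type 12.8 to 23.3). Cd68 overlapped, and Ly6c2 was at 1.18 to 2.82 CPM in deficient and 0.659 to 1.46 CPM in wild type. Of 9 tested endothelial markers Clec4g and Tie1 fell and Egfl7 rose (52.3 to 93.2 and 44.5 to 115 CPM). With a library left out 1 or 2 fell (1 when wild type 1, 2 or 3 was dropped) and 0 to 2 rose (0 when deficient 1 or 4 or wild type 2, 3 or 4 was dropped, 2 for wild type 1). Of 10 stellate cell markers, a cell type known to make Cxcl12, 3 fell, and 2 to 4 with a library left out (89.7 to 178 and 146 to 233 CPM). Deficient 1 was far above the other deficient libraries for Des (15.9 CPM, others 0.994 to 1.16) and Col1a1 (14.2 CPM, others 0.983 to 2.36). The same held for Col3a1 (26.9 CPM, others 6.49 to 7.89), while Reln was lowest there (12.8 CPM). The median log2 fold change of the list was -0.41, and -0.82 without deficient 1. Of 5 tested cholangiocyte markers 1 fell, Sox9 (0 without deficient 3, deficient 4 or wild type 3), with sums of 43.4 to 152 and 195 to 234 CPM. Sox9 alone was at 9.65 to 96.7 and 144 to 164 CPM, while Krt19, Krt7, Epcam and Spp1 overlapped between groups. Of 4 tested platelet markers, a list that includes Ppbp and Pf4 themselves, Ppbp and Itga2b fell (9.50 to 16.5 and 10.4 to 15.8 CPM), with Gp1bb at 0 reads throughout. That count was 1 when deficient 1 or 3 or wild type 2, 3 or 4 was dropped. Itgb3 had the opposite sign, at 5.47 to 11.5 CPM in deficient and 2.84 to 6.39 CPM in wild-type libraries (edgeR adjusted p = 0.0562), and was called higher by DESeq2 and limma on log2(FPKM + 1). The sums of the 10 hepatocyte markers did not overlap between groups. Alb made most of these sums, at 55473 to 79131 CPM in deficient and 84759 to 96659 CPM in wild type, and was not called (edgeR adjusted p = 0.0884). Ttr, Serpina1a and Cps1 also did not overlap, while Apoa1, Apob, Tat, Hnf4a, Asgr1 and Cyp2e1 did. Of the 10, 1 fell in edgeR (Cps1), 5 were lower at an unadjusted p under 0.05 and DESeq2 called 4 lower. The edgeR count was 0 when deficient 1, deficient 3 or wild type 3 was dropped and 2 for wild type 1. Of 6 tested T and NK cell markers 0 were called in edgeR, DESeq2 or limma and 0 had an unadjusted edgeR p under 0.05 (29.7 to 43.7 and 28.0 to 54.4 CPM). The part of these cells in the chemokine differences was not tested.

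In the table, Cxcl5, Ppbp, Pf4, Cxcl3, Cxcl1 and Cxcl2 lie together on chromosome 5 between 90907219 and 91053797. Of 10 other tested genes within 500000 bases of that block, Albfm1 fell by 0.82 (SE 0.26) and Rassf6 rose by 1.24 (SE 0.39). Of 12 around Cxcl9 and Cxcl10, Stbd1 was the one called and rose by 1.17 (SE 0.26). Over all genes tested 19.9% were called. Art3, on the opposite strand, spans Cxcl10, and had 171 reads in all libraries against 272394 for Cxcl10. P2rx4 lies on the same chromosome, 30.3 megabases from Cxcl10. Transcripts of Cxcl2 and Cxcl3 share 126 stretches of 50 bases (GENCODE M21), which is 5.84% of those of Cxcl2 and 3.51% of those of Cxcl3, so reads from those stretches could belong to either gene. No other pair of the 9 shared any.

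Closeness to each member was measured by the mean absolute difference of gene-centred log2 CPM over the 8 libraries, a distance in log2 units. Genes with Gm, Rik, clone-type or pseudogene-style symbols were left out before the closest genes were picked. For Cxcl10 these were H1f4 at 0.18, Abcd2 at 0.22 and Gadd45b at 0.25. For Cxcl2 they were Akr1d1 at 0.33, Jun at 0.34 and Gem at 0.34. Cxcl1 was nearest to Clec2d and Bcl2l11 at 0.12 and Dph7 at 0.13, and Cxcl3 to Zeb2 and Ets1 at 0.20 and Edn1 at 0.21. Cxcl12 was nearest to Dgcr6 and Tacc2 at 0.08 and Pcbd1 at 0.10, and Cxcl14 to Kctd13 at 0.14 and Ino80b and Hnrnpa0 at 0.15. The uncalled members had Ehf, Atp2a3 and Serpinb6a (Cxcl5, 0.16 to 0.19), Nop53, Tmod3 and Lsm14a (Cxcl9, 0.04 to 0.07) and Atp5j2, Ropn1l and Ndufa4 (Cxcl16, 0.07 to 0.08). The distance is smaller for genes that vary little, and over 8 libraries such likeness is a description only.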

How the data were processed

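RNA for 8 mouse liver libraries was extracted with Trizol, selected for poly(A) and sequenced on an Illumina NovaSeq, per the labels' protocols. The submitters' processing notes name cutadapt and HISAT2 2.0.5; for the counting program, use of strand, annotation and build, the name is not given in the sources used here. The table deposited by the authors holds, per the file headers, raw read counts and FPKM for every gene and library; FPKM recomputed from the deposited counts and listed lengths differed by at most 7e-05%. Gene coordinates are printed as the table lists them, with its build unnamed, and promoters are on GRCm38.p6. Groups follow the genotype label.

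Counts were tested with edgeR 4.0.16 (R 4.3.3; quasi-likelihood, TMM, default expression filter, no covariate) on all 11380 genes kept, with Benjamini-Hochberg adjustment at 0.05. Standard errors are the log2 fold change divided by the square root of F. On simulated counts of 11245 genes, with 100 changed at each size, the fit recovered 52% of 2-fold and 88% of 4-fold changes. It also made 16 false calls. Fewer genes were changed there than were called in the data. Single genes were also compared by exact two-sided permutation tests. Limits on a count of 0 use 3 reads and cover counting error only. Likeness used log2(CPM + 0.5), among genes left after dropping Gm, Rik, clone-type and pseudogene-style symbols.

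The members and lists were chosen with earlier results of these data known. Named are all members, P2rx4, all measured genes of 2 lists (other CXC ligands, receptors), up to 4 genes with the smallest p of each other pathway list, and the 3 nearest patterns per member; further genes, such as Tnf, Ifng, Adam10, Adam17, neighbours on chromosome 5 and marker genes, were named after their values were seen. The result of 1 listed transcription factor is not reported here. Alternatives were library size alone, DESeq2 1.42.0, other filters, limma 3.58.1 after log2(FPKM + 1) or log2(FPKM + 0.1), voom, robust empirical Bayes, the replicate block and leaving out each library.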

Additional observations from a re-analysis of the deposited data

Results flagged for a closer look

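Each group of 4 libraries was checked for a value far from the other 3, for 37 combinations of gene and group with at least 20 reads, and chance alone marks about 1 in 20 such groups. Cxcl2 was marked in the deficient libraries, where deficient 4 stood at 131 CPM and the others at 27.3 to 43.2 CPM. The gap was 0.847 of the range, above Dixon's 95% critical value for 4 values. Ackr3 was marked in the same group, with deficient 3 at 0.174 CPM and the others at 3.67 to 4.25 CPM, a gap of 0.856.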

How the results depend on the processing

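The number of members that fell was 5 in every alternative that kept all 8 libraries and 3 to 5 with a library left out, 3 without deficient 3 or wild type 3. The number that rose was 1 in all alternatives except without wild type 3, where it was 0. Cxcl2, Cxcl3, Cxcl12 and P2rx4 kept direction and call in all 17 alternatives, Cxcl14 in 16, Cxcl10 in 15 and Cxcl1 in 14. Over all genes the number called was 982 to 2388 with a library left out, the lowest being 982 when wild type 3 was dropped, then 1224 (deficient 3) and 1482 (deficient 1), against 2264 in all 8. The share of called genes that were higher was 46.6% with TMM, 67.2% with library size alone and 66.3% in limma on log2(FPKM + 1), which move the median gene up by 0.145 and 0.123. Uncalled estimates that changed sign were Cxcl9 (0.0469 with library size alone, 0.0515 in limma on log2 FPKM with either pseudocount and 0.0515 for the difference of mean log2(FPKM + 1), exact permutation p = 0.571), Cxcl16 (-0.323 to 0.0373 with a library left out, the highest without wild type 1) and Ackr1 (-0.614 to 0.00113, the highest without wild type 2). The Cxcl1 difference of mean log2(FPKM + 1) was -1.0 (exact permutation p = 0.0857).

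No pairing by the numbers at the end of the titles was seen: deviations of same-numbered libraries correlated at 0.12, -0.13, 0.08 and -0.14 across genes. Such low values cannot exclude a pairing. With the replicate block 5 members fell and 1 rose, as without it, 1768 genes were called, and Cxcr2 was not called (1.51, edgeR adjusted p = 0.0512). Among the members depth limits Cxcl3, Cxcl5 and Cxcl14 most, at 9 to 122 reads per library. Reads were also few for Il1a, Il6 and the receptors below the filter.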

Other observations

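The word GGGAATTTCC, present before the starts of Cxcl1, Cxcl2 and Cxcl3, was found within 250 bases before the start of 28 genes in the RefSeq promoter table. Of these, 13 passed the expression filter, and 10 of the 13 are not CXC chemokines. Among the 10, 4 fell in edgeR: Nfkbia, the NF-kB inhibitor alpha, by 1.70, Gbp5, a guanylate-binding protein gene, by 1.14, the transporter gene Slc6a13 by 0.98 and Tufm, a mitochondrial elongation factor gene, by 0.55. Over all genes 10.6% fell. The remaining 6 were Trio, Hpn, Zfp84, Map3k7, Csad and Il16, with log2 fold changes from -0.74 (Csad) to 0.53 (Zfp84). The word was chosen after it was seen in 3 members that fell, and these counts are a description with no test.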
